A study of Mus musculus with 6 samples.

Results

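The genes described here are those of MHC class I antigen presentation in mouse osteosarcomas that have or lack Skp2. They were chosen by name: every annotated gene whose symbol is H2-K, H2-D, H2-Q, H2-T or H2-M followed by a number (30 genes, all on chromosome 17), and 12 genes for the light chain, peptide transport and loading, transcription and class I-like presentation (B2m, Tap1, Tap2, Tapbp, Tapbpl, Erap1, Nlrc5, Calr, Canx, Pdia3, Cd1d1 and Mr1). These are 42 of the 56196 genes listed. Of the 42, 27 passed the filter on low counts and were tested, 2 more (H2-M10.1 and H2-M5) reached 10 counts in at least 1 library, 8 stayed between 1 and 9 counts in their highest library, and 5 (H2-M10.3, H2-M10.4, H2-M10.5, H2-M10.6 and H2-Q3) had 0 counts in all 6 libraries. A count of 0 allows up to 3 counts, or 0.125 to 0.177 counts-per-million (CPM) in these libraries.

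Polyadenylated RNA was sequenced from 6 tumours. All carried Osx1-Cre, a recombinase driven by the promoter of an osteoblast precursor gene (Osx1, now Sp7), together with homozygous Rb1lox and p53lox alleles, so the tumour suppressors Rb1 and p53 were targeted in both groups. The 3 double knockout (DKO) tumours had Skp2 intact and the 3 triple knockout (TKO) tumours were SKP2-/-. SKP2 is the substrate-binding subunit of a ubiquitin ligase that marks cell cycle inhibitors for breakdown. Values of the 3 tumours of a group are always listed in the order of replicates 1, 2 and 3. Each group had 1 male tumour (replicate 1) and 2 female tumours. Age, strain and H2 haplotype are not given in the sources used here. H2 genes vary between mouse strains, and counts refer to the mm10 sequence of each gene, so a haplotype unlike that of mm10 could alter the counts of single H2 genes and their ratios; its part in the values was not tested. The male tumour of a group cannot share a mouse with the female ones, and each sample title holds its own code, but the labels do not state that each code is a mouse. The p-values cover the spread among these 6 samples.

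Libraries held 17063231 to 22488819 gene counts. Skp2 had 20, 64 and 46 counts in the DKO tumours and 0 in each TKO library, which matches the labels. Rb1 had 17.9 to 22.4 CPM in the DKO tumours and 91.4, 52.0 and 44.7 CPM in the TKO tumours. The p53 gene Trp53 had 6.01 to 7.34 CPM in DKO and 8.43, 37.6 and 21.8 CPM in TKO. The source of the Rb1 and Trp53 counts was not tested. Of the osteoblast markers, Runx2 was present in all 6 tumours (58.2 to 241 CPM), but Sp7 had 0 counts in DKO2 and in TKO1, and TKO1 had 208 CPM of the collagen gene Col1a1 against 9912 to 30124 CPM in the other 5 tumours. TKO1 also stood apart across genes: the correlation of its log2 CPM with the other TKO libraries was 0.805 to 0.830, against 0.915 between those libraries and 0.933 to 0.954 between DKO libraries. The main values are therefore also given without TKO1. The number of genes that passed moved with single libraries: 1131 of 15361 genes (7.36%) passed with all 6 libraries, between 0 and 39 when a DKO library was left out, and 2385, 475 and 331 without TKO1, TKO2 and TKO3.

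MHC class I molecules show peptides from inside a cell to CD8 T cells. A heavy chain (H2-K1 or H2-D1 among the classical ones) pairs with the light chain beta-2 microglobulin (B2m), is held by the chaperones calnexin and calreticulin and the disulphide isomerase Pdia3, and is loaded with peptides that the transporter TAP brings into the endoplasmic reticulum and that the aminopeptidase Erap1 trims, while tapasin (Tapbp) and its relative Tapbpl edit the choice of peptide. Transcription depends on the transactivator Nlrc5 and on interferon and NF-kB signals, and many tumours carry low class I levels. Non-classical heavy chains of the H2-Q, H2-T and H2-M families have narrower roles, several of them read by natural killer or unconventional T cells.

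Heavy chain genes are close copies, which limits how reads can be assigned to them. The stretches shown here are 100 bases of exon 2, which codes for part of the peptide groove, from the annotated transcripts (GRCm38, the assembly of mm10). Capitals mark bases that differ from H2-K1 at the same position. The stretches lie in H2-K1 at chr17:33999844-33999943 (minus strand), H2-D1 at chr17:35263439-35263538 (plus strand), H2-Q4 at chr17:35379964-35380063 (plus strand), H2-Q5 at chr17:35394417-35394516 (plus strand), H2-Q6 at chr17:35425168-35425267 (plus strand), H2-Q7 at chr17:35439512-35439611 (plus strand), H2-T23 at chr17:36032263-36032362 (minus strand).
H2-K1: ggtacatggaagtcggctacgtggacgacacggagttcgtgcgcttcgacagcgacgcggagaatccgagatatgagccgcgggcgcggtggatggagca
H2-D1: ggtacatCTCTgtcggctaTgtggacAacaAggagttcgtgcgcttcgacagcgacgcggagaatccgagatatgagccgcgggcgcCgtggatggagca
H2-Q4: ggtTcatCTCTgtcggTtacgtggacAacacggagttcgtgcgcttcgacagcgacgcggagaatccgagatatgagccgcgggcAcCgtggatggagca
H2-Q5: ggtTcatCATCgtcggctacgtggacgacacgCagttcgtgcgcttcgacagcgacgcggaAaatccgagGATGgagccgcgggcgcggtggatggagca
H2-Q6: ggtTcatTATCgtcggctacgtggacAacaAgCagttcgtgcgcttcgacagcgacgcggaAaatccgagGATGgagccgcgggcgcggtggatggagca
H2-Q7: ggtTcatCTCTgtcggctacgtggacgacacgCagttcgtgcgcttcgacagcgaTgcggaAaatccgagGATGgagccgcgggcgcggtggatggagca
H2-T23: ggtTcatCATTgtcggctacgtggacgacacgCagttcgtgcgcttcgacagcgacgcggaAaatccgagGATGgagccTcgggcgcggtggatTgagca

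Over 270 bases of this exon, H2-D1 and H2-Q4 were 91.1% and 91.5% identical to H2-K1, H2-Q5, H2-Q6 and H2-Q7 were 87.8 to 88.1% identical to it, and H2-T23 was 86.7% identical. H2-Q5, H2-Q6 and H2-Q7 were closer to each other (93.0 to 95.6%) than H2-Q4 was to any of them (85.6 to 86.7%), and H2-Q5 and H2-Q6 shared an unbroken run of 103 bases. Of all 50-base stretches in their transcripts, 26.5 to 36.4% of those of H2-Q4, H2-Q5, H2-Q6 and H2-Q7 also occurred in transcripts of another gene. This share was 53.5% for H2-T22 and 50.4% for H2-T10, whose closest copies are each other. It was 14.5% for H2-T23, 12.8% for H2-D1, 9.63% for H2-K1 and 0% for B2m and Mr1. Genes that overlap the same exons count in these shares, such as A930015D03Rik with 26.5% of the stretches of H2-T22. BC023719 held 24.9% of those of H2-T10 and Gm11131 15.3% of those of H2-Q4. H2-T22 and H2-T10 shared 31.2% and 31.7% of their stretches with each other. The deposited counts hold no reads that match several places, so the H2-Q values and those of H2-T22 and H2-T10 are uncertain as values of single genes. In GENCODE M21, exons of H2-T22, Tapbp, H2-T10, H2-Q4, Tap2 and Erap1 also overlap those of other genes over 29.4, 29.0, 27.1, 19.1, 18.5 and 11.5% of their length. Reads in exons of several genes stayed out of the deposited counts. Whether the authors' annotation holds these same overlaps is not known.

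Upstream of the heavy chain genes a conserved block carries sites for NF-kB and interferon-induced factors. The 110 bases shown here, from the RefSeq promoter table (GRCm38.p6), are aligned on the interferon-type site, with the searched motifs in capitals: GGGATTCCC (NF-kB type), TTTCNNTTC (interferon response type), TGACG (cyclic AMP response type) and CCAAT (NF-Y type, here as ATTGG). They lie in H2-K1 at chr17:34000353-34000462 (minus strand), H2-D1 at chr17:35262919-35263028 (plus strand), H2-Q4 at chr17:35379439-35379548 (plus strand), H2-Q6 at chr17:35424673-35424782 (plus strand), H2-Q7 at chr17:35439017-35439126 (plus strand).
H2-K1: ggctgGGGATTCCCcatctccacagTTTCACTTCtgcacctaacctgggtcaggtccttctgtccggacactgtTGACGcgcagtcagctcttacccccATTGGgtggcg
H2-D1: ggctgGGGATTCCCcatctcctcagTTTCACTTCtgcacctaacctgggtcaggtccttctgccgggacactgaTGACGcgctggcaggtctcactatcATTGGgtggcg
H2-Q4: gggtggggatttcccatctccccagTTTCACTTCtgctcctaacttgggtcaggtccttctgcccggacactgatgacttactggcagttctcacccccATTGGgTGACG
H2-Q6: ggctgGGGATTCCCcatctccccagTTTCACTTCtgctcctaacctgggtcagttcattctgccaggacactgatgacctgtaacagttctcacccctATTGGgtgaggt
H2-Q7: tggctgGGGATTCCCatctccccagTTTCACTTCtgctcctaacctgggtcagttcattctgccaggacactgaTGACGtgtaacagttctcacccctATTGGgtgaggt

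Both strands were searched in the 300 bases around each gene start, and no motifs overlapped each other in the windows shown. Of the 42 genes, 30 were in the promoter table. GGGATTCCC was found in 4 of them (H2-K1, H2-D1, H2-Q6 and H2-Q7) and in 0.353% of all 32851 promoters, TTTCNNTTC in 8 (also H2-Q4, H2-Q10, H2-M2 and H2-M3) and in 7.52%, TGACG in 15 and in 20.8%, and CCAAT in 25 and in 37.4%. The first pair of motifs lay together in 11 promoters of the whole table, 0.0335%. The interferon-type motif began 20 bases after the start of the NF-kB motif in H2-K1, H2-D1 and H2-Q6 and 19 bases after it in H2-Q7. A match is a description of the letters and does not show binding. The interferon-type search used the form found in H2-K1 and could not match a longer form with a further T. TTTCACTTTC in the promoters of H2-T22 and Erap1, and GAAACTGAAA in that of B2m (the other strand), were therefore not counted. The NF-kB type search matched only the exact letters given. GGGATTTCCC in the promoter of H2-Q4 and GGAAAGTCCC in that of B2m (the other strand) were not counted either. The promoters were not searched for these longer forms, so a gene without a match may still hold an interferon-type or NF-kB type site.

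The comparison of TKO with DKO tumours asked how transcripts of these genes differ where Skp2 is absent. H2-K1, H2-D1, 4 H2-Q genes, 3 H2-T genes, B2m, Tap1, Canx and Mr1 were less abundant in every TKO tumour than in any DKO tumour, but only H2-Q7 and H2-Q5 passed the test. Of the 27 genes tested, 2 fell (7.41%, where 2.47% of all genes fell), 0 rose (where 4.89% of all genes rose) and 25 passed in neither direction (7.36% of all genes passed in either) by edgeR's quasi-likelihood test with Benjamini-Hochberg adjustment over 15361 genes, the source of every adjusted p given here unless another tool is named. In 13 of the 27 (48.1%) the 3 TKO values lay below the 3 DKO values, as in 15.6% of all genes, and in 1 (3.7%) above them, as in 17.3% of all genes. At an unadjusted p under 0.05, 12 of the 27 were lower (44.4%, against 10.6% of all genes) and 1, H2-M9, was higher. The median log2 fold change, TKO minus DKO, was -0.89 over the 27 genes and 0.09 over all genes tested. Without TKO1, 13 of the 27 separated the groups with TKO lower (24.3% of all genes did) and 5 with TKO higher (26.7% of all genes; H2-M9, H2-Q10, H2-T24, Tapbpl and Tap2), and the median was -0.85. These are whole tumours, in which fewer cells of a kind and less RNA per cell cannot be told apart.

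**Figure D1:**
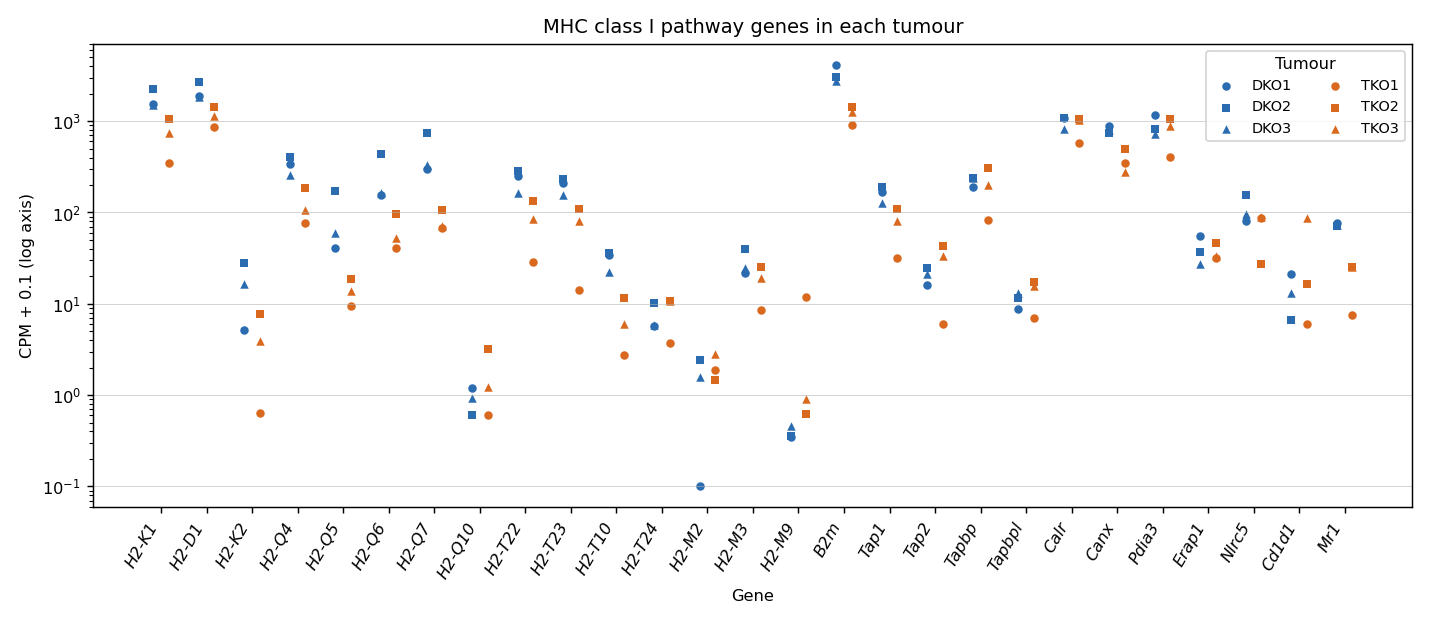
Counts-per-million (CPM plus 0.1, log axis) of the 27 tested genes in each tumour, DKO in blue and TKO in orange, with the marker shape giving the replicate. For H2-K1 the DKO tumours sit between 1506 and 2256 CPM and the TKO tumours between 352 and 1067 CPM, while for Calr, Pdia3 and Tapbp the groups overlap.

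The classical heavy chains were the most abundant of the H2 genes. H2-K1 (ENSMUSG00000061232.16, chromosome 17, 33996017 to 34000347, minus strand) had 1551, 2256 and 1506 CPM in the DKO tumours and 352, 1067 and 736 CPM in the TKO tumours. The groups did not overlap, and TKO1 was the lowest. H2-K1 had 1771 ± 420 CPM in DKO and 718 ± 358 CPM in TKO (SD, n = 3), which gave a log2 fold change of -1.30 (SE 0.48, adjusted p = 0.152), not past the threshold. H2-D1 (ENSMUSG00000073411.12, chromosome 17, 35262730 to 35267499, plus strand) had 1873, 2680 and 1820 CPM in DKO and 868, 1415 and 1151 CPM in TKO, in the same order of replicates. Here too every TKO value was below every DKO value. Its log2 fold change was -0.89 (SE 0.37, adjusted p = 0.194). Without TKO1 the log2 fold changes were -0.98 for H2-K1 and -0.73 for H2-D1. Neither gene passed under any of the 16 alternatives tried, with adjusted p from 0.0552 to 0.351 for H2-K1 and from 0.0751 to 0.429 for H2-D1.

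B2m, the light chain shared by all these heavy chains (ENSMUSG00000060802.8, chromosome 2, 122147686 to 122153083), shares no 50-base stretch with another gene. It had 4118, 3016 and 2728 CPM in the DKO tumours and 913, 1436 and 1252 CPM in the TKO tumours. The lowest DKO tumour had more B2m than the highest TKO tumour. B2m was 2.74-fold less abundant in TKO (log2 fold change -1.45, SE 0.38), with an adjusted p of 0.0681 that missed the threshold. It passed by DESeq2 (adjusted p = 0.000642), by limma-voom (0.0405) and without a filter on low counts (0.0457), and missed it without TKO1 (0.0698). The adjusted p over all 16 alternatives ran from 0.000642 to 0.172. Per kilobase of annotated exon, B2m was the most abundant gene of the group in DKO (3822 CPM per kb), followed by H2-D1 (824), H2-K1 (603), Calr (347) and Pdia3 (288). These are levels divided by the joined length of all annotated exons, which understates genes with long rare exons.

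The H2-Q family, which includes the heavy chain of the Qa-2 antigen (H2-Q7), held the 2 genes that passed. H2-Q7 (ENSMUSG00000060550.16, chromosome 17, 35439155 to 35443773) had 298, 741 and 335 CPM in the DKO tumours and 66.9, 107 and 70.8 CPM in the TKO tumours. DKO2 was the highest of the 6 tumours, and no TKO tumour reached the lowest DKO tumour. H2-Q7 fell 5.61-fold (log2 fold change -2.49, SE 0.46, adjusted p = 0.0291). The call held without TKO1 (0.0329) and did not hold when DKO1 (0.0714), DKO2 (0.0814), DKO3 (0.0874), TKO2 (0.0608) or TKO3 (0.0819) was left out, nor when genes under 1 CPM throughout a group were dropped (0.0620). H2-Q5 (ENSMUSG00000055413.12, chromosome 17, 35394126 to 35397800), annotated as a polymorphic pseudogene, had 40.3, 170 and 59.5 CPM in DKO and 9.47, 18.4 and 13.9 CPM in TKO. Its values again separated the groups, with DKO2 far above the others. H2-Q5 fell 6.47-fold (log2 fold change -2.69, SE 0.61, adjusted p = 0.0464), and the log2 fold change was -1.86 without DKO2 and -3.06 without DKO1. The call was lost when any single library was left out (0.0582 without TKO1, 0.0763, 0.112 and 0.115 without DKO1, DKO2 and DKO3, 0.0918 and 0.112 without TKO2 and TKO3). It was also lost with library totals in place of scaling factors (0.0504), by limma-voom (0.0664), with the counts of the first strand column (0.0515) and when genes under 1 CPM throughout a group were dropped (0.0851).

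H2-Q4 and H2-Q6 were the other abundant genes of the family. H2-Q4 had 340, 401 and 257 CPM in the DKO tumours and 76.6, 185 and 106 CPM in the TKO tumours, a log2 fold change of -1.44 (SE 0.40, adjusted p = 0.0766). H2-Q6 had 157, 435 and 164 CPM in DKO and 41.0, 96.3 and 51.8 CPM in TKO, a log2 fold change of -2.00 (SE 0.54, adjusted p = 0.0744) that was -1.37 without DKO2. Both separated the groups, and both passed by DESeq2 (0.0140 and 0.00695) and without a filter on low counts (0.0402 and 0.0211). Without TKO1 the log2 fold changes were -1.20 for H2-Q4 and -1.77 for H2-Q6. Since the values of single H2-Q genes are uncertain, the 8 H2-Q genes were also summed before the fit. Reads that match several places stayed out of this sum too. The sum was 836, 1750 and 816 CPM in DKO and 194, 410 and 244 CPM in TKO, 4.01-fold less in TKO, and it just missed the threshold (log2 fold change -2.00, SE 0.48, adjusted p = 0.0523; 0.0605 without TKO1). H2-Q10, which codes for a secreted heavy chain of liver, stayed at 0.498 to 3.12 CPM in all tumours.

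Among H2-T genes, H2-T23 codes for Qa-1, the ligand of inhibitory receptors on natural killer cells, and H2-T22 and H2-T10 code for chains read by gamma-delta T cells. H2-T23 had 212, 231 and 156 CPM in the DKO tumours and 14.2, 109 and 81.2 CPM in the TKO tumours. TKO1 lay far below the other tumours of its group. The log2 fold change was -1.55 (SE 0.68, adjusted p = 0.212), and without TKO1 it was -1.07 (adjusted p = 0.0561). H2-T22 had 249, 288 and 165 CPM in DKO and 28.6, 132 and 84.2 CPM in TKO (log2 fold change -1.52, SE 0.56, adjusted p = 0.151; -1.12 without TKO1, adjusted p = 0.0842). H2-T10, annotated as a polymorphic pseudogene, had 33.7, 35.5 and 22.2 CPM in DKO and 2.62, 11.4 and 5.94 CPM in TKO (log2 fold change -2.20, SE 0.57, adjusted p = 0.0672). H2-T10 passed without TKO1 (0.0393), by DESeq2 (0.00292), by limma-voom (0.0445) and without a filter on low counts (0.0250), and its log2 fold change was -2.82 without TKO2. All 3 genes separated the groups, and the summed H2-T family had 472 ± 111 CPM in DKO and 165 ± 108 CPM in TKO (SD, n = 3; adjusted p = 0.175). H2-T24 did not separate them, with 5.56 to 10.03 CPM in DKO and 3.61 to 10.6 CPM in TKO.

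The H2-M genes were scarce. H2-M3, which presents formylated bacterial peptides, was the only one with a mean above 10 CPM over the 6 tumours, with 21.7, 39.9 and 24.8 CPM in the DKO tumours and 8.39, 25.4 and 18.8 CPM in the TKO tumours. The groups overlapped (log2 fold change -0.72, SE 0.48, adjusted p = 0.397). H2-M9 had 5, 5 and 6 counts in DKO and 284, 11 and 16 counts in TKO (0.248 to 0.355 CPM in DKO and 11.8, 0.529 and 0.813 CPM in TKO), so that nearly all of its counts came from TKO1 (adjusted p = 0.130). H2-M10.1 had 25, 1 and 2 counts in DKO and 0 in TKO, and H2-M5 had 3, 27 and 40 counts in DKO and 8, 6 and 0 in TKO, and neither was tested. H2-M2 lay between 0 and 2.74 CPM in all tumours. The pseudogene H2-K2 had 5.11, 27.6 and 16.5 CPM in DKO and 0.540, 7.54 and 3.86 CPM in TKO, and its groups overlapped (log2 fold change -2.04, adjusted p = 0.255; -2.89 without TKO2).

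**Figure D2:**
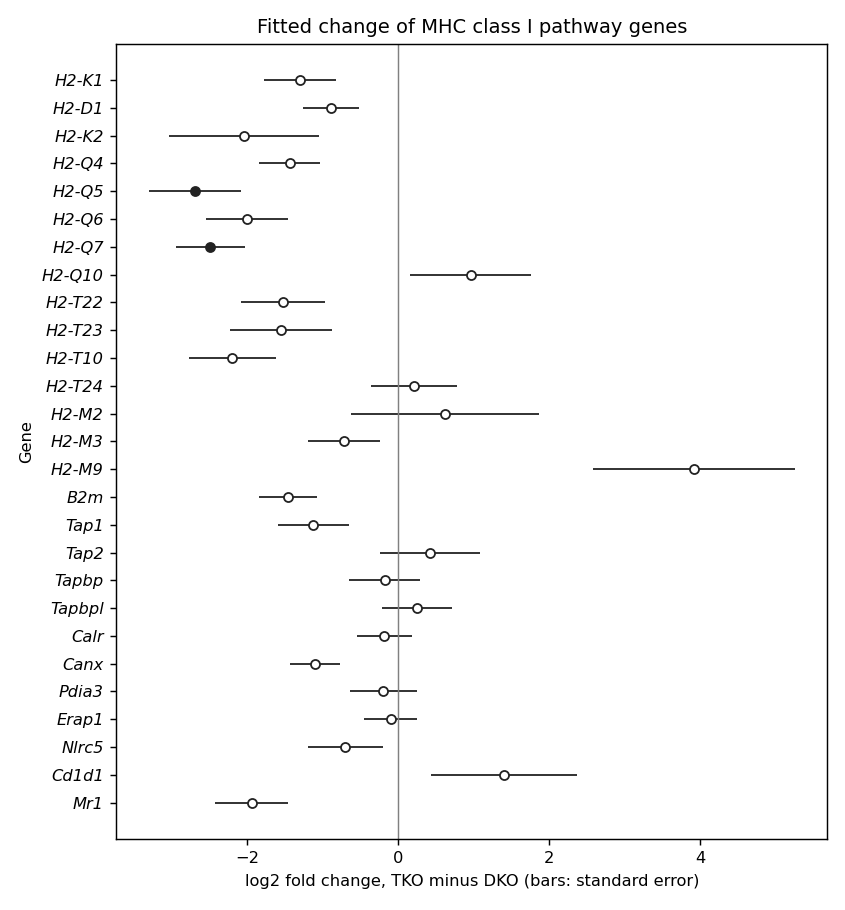
Fitted log2 fold change (TKO minus DKO) of the 27 tested genes, with bars for the standard error and filled points for an adjusted p under 0.05. H2-Q5 (-2.69) and H2-Q7 (-2.49) are the filled points, and the loading factors Tapbp, Tapbpl, Calr, Pdia3 and Erap1 lie between -0.20 and 0.25.

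The make-up of the heavy chain pool was set beside its size. Summed over all H2 genes of the list, heavy chains had 4789, 7322 and 4537 CPM in the DKO tumours and 1486, 3191 and 2341 CPM in the TKO tumours (two-sided exact permutation test, p = 0.1). H2-Q genes made up 19.8 ± 3.57% of heavy chain counts in DKO and 12.1 ± 1.47% in TKO (SD, n = 3), and H2-D1 38.6 ± 1.8% and 50.6 ± 7.14%. Counting error alone gave each share in a tumour a 95% Wilson interval of at most ± 0.511 percentage points, and the spread between tumours is the SD. Without TKO1 the mean TKO shares were 11.6% for H2-Q genes and 46.8% for H2-D1. The number of H2-Q counts per count of H2-K and H2-D genes was 0.244, 0.352 and 0.244 in the DKO tumours and 0.159, 0.165 and 0.129 in the TKO tumours, without overlap (exact p = 0.1, 0.2 adjusted over 4 ratios). H2-D1 counts per H2-K1 count were 1.21, 1.19 and 1.21 in DKO and 2.47, 1.33 and 1.56 in TKO, again without overlap (exact p = 0.1, adjusted 0.2). The H2-T ratio was 0.104 to 0.146 in DKO and 0.0401, 0.106 and 0.0962 in TKO, with overlap (exact p = 0.2, adjusted 0.267). B2m counts per heavy chain count were 0.860, 0.412 and 0.601 in DKO and 0.614, 0.450 and 0.535 in TKO, and these did not separate (exact p = 0.7, adjusted 0.7). Without TKO1 the difference in log2 ratio, TKO minus DKO, went from -0.88 to -0.92 for H2-Q (exact p = 0.2), from 0.52 to 0.26 for H2-D1 to H2-K1 (exact p = 0.2) and from -0.70 to -0.25 for H2-T (exact p = 0.4), where 2 against 3 tumours cannot go below 0.2. Such ratios within a library do not depend on scaling factors, but like the shares they leave out reads that match several places. With all tumours, 3 against 3, these tests cannot go below 0.1.

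**Figure D3:**
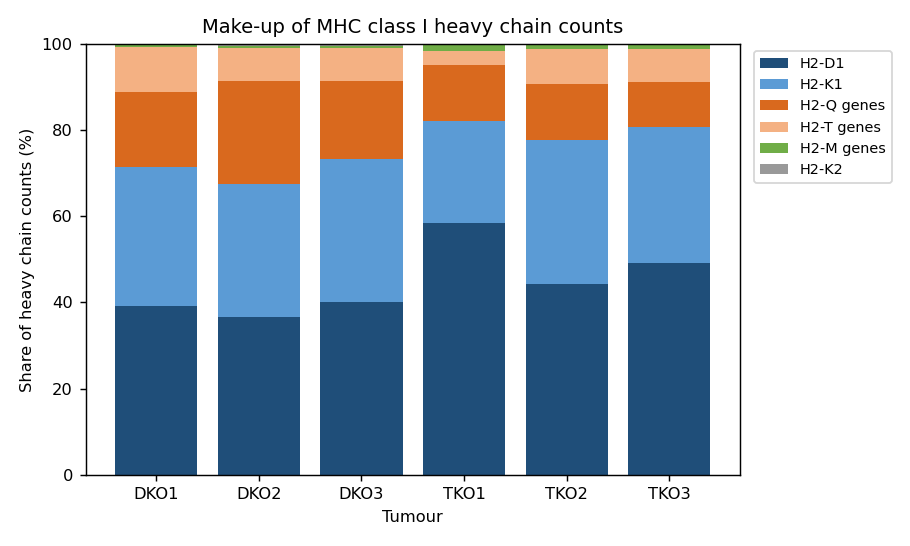
Share of MHC class I heavy chain counts (percent, vertical axis) taken by H2-D1, H2-K1, the H2-Q, H2-T and H2-M families and the pseudogene H2-K2 in each tumour. H2-Q genes hold 17.5 to 23.9% in DKO and 10.4 to 13.1% in TKO, and H2-D1 holds 58.4% in TKO1.

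Among genes of peptide supply and loading, 0 passed, where 7.36% of all genes did. TKO lay below DKO in all tumours for Tap1 and Canx, as in 15.6% of all genes. Tap1, a subunit of the peptide transporter, had 168, 189 and 126 CPM in the DKO tumours and 31.7, 109 and 81.0 CPM in the TKO tumours, which separated the groups (log2 fold change -1.12, SE 0.47, adjusted p = 0.194; -0.77 without TKO1). Tap2, its partner, had 16.03, 24.6 and 21.4 CPM in DKO and 5.98, 43.1 and 33.6 CPM in TKO, with TKO1 lowest and TKO2 and TKO3 highest of all (adjusted p = 0.740). Calnexin (Canx) had 875, 741 and 792 CPM in DKO and 349, 498 and 277 CPM in TKO, a separation that missed the threshold (log2 fold change -1.10, SE 0.33, adjusted p = 0.0961; 0.0151 by DESeq2; -1.05 without TKO1). For the rest the groups overlapped. Tapasin (Tapbp) had 191, 237 and 238 CPM in DKO and 81.8, 305 and 201 CPM in TKO, and its relative Tapbpl had 8.68, 11.4 and 13.2 CPM in DKO and 6.85, 17.3 and 15.5 CPM in TKO. Both were lowest in TKO1 and highest in TKO2. Calreticulin (Calr) had 1089, 1089 and 819 CPM in DKO and 574, 1045 and 1018 CPM in TKO, and Pdia3 had 1165, 827 and 716 CPM in DKO and 409, 1067 and 885 CPM in TKO. Erap1 had 54.5, 37.1 and 27.2 CPM in DKO and 31.9, 46.2 and 32.9 CPM in TKO. The log2 fold changes of these 5 genes lay between -0.20 and 0.25, with adjusted p from 0.776 to 0.887. The sign for Calr, Pdia3 and Tapbp turned without TKO1 (0.04, 0.11 and 0.18).

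TKO1 was the lowest of the 6 tumours in 22 of the 27 genes tested, Calr, Pdia3, Tapbp and Tapbpl included, and DKO2 was the highest in 14. These counts were not made over all genes, where TKO1 also stood apart, so they are not shown to be particular to class I genes. TKO2 and TKO3 both lay above every DKO tumour for Tap2 and Tapbpl and below every DKO tumour for H2-K1, H2-D1, B2m, Tap1, Canx and Mr1.

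Nlrc5, the class I transactivator (chromosome 8, 94434356 to 94527272), did not order the TKO tumours as the chains did. It had 81.1, 154 and 95.1 CPM in the DKO tumours and 87.1, 27.4 and 88.4 CPM in the TKO tumours. TKO2 had the lowest Nlrc5 and the highest H2-K1, B2m and Tap1 of the TKO tumours, and TKO1, lowest in those 3 genes, had more Nlrc5 than DKO1. DKO2 had the highest Nlrc5 of all tumours and also the highest H2-K1, H2-D1 and Tap1, while B2m was highest in DKO1. The log2 fold change of Nlrc5 was -0.70 (SE 0.50, adjusted p = 0.426). The part of Nlrc5 in the class I values was not tested. Of 14 tested genes on a list of other class I transcription factors, 1 rose (4.89% of all genes did) and 0 fell (2.47% of all genes did). Their median was 0.15 on the log2 scale. The riser was Rfxap, a subunit of the RFX complex that binds class I and class II promoters, with 12.3, 14.5 and 16.3 CPM in DKO and 43.9, 52.4 and 35.5 CPM in TKO (log2 fold change 1.61, SE 0.30, adjusted p = 0.0291). Its partner Rfx5 had 16.5, 41.2 and 37.8 CPM in DKO and 12.3, 13.8 and 14.9 CPM in TKO (adjusted p = 0.123). Stat2, which carries type I interferon signals, had 157, 146 and 112 CPM in DKO and 29.2, 58.4 and 64.8 CPM in TKO (adjusted p = 0.0603). Irf1 overlapped between groups at 21.8 to 48.7 and 29.5 to 52.5 CPM. Nfya, a factor that most cells need, is listed at 0 in all 6 libraries, so a 0 in these counts need not mean that a gene is silent. Of 8 interferon receptor and kinase genes 0 passed (7.36% of all genes did), with a median of 0.09.

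**Figure D4:**
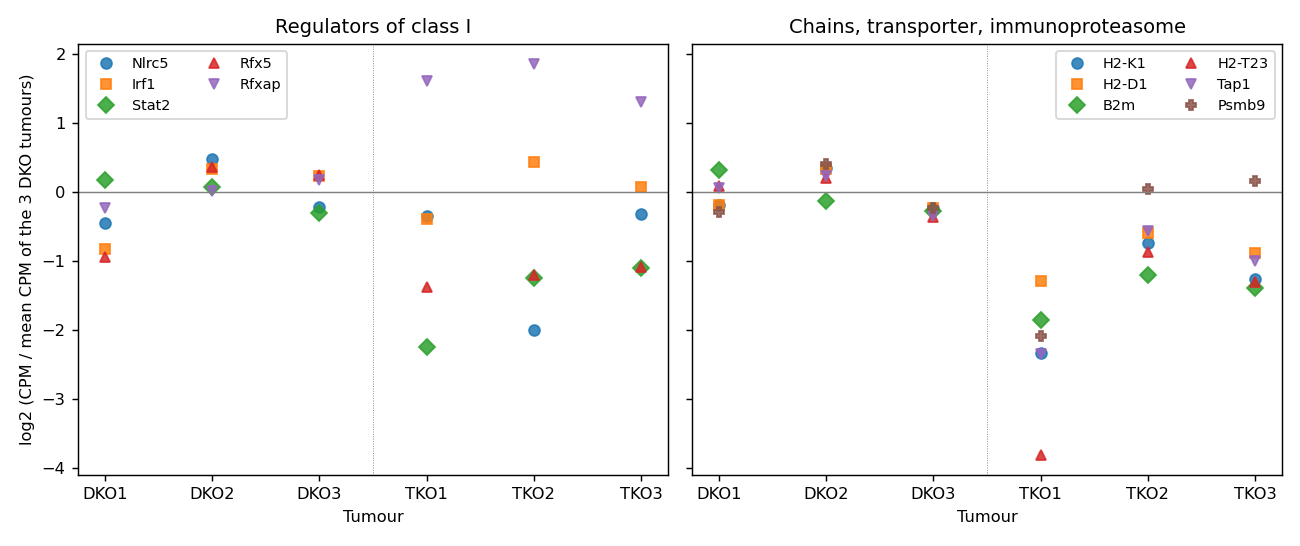
Level of class I regulators (left) and of chains, Tap1 and the immunoproteasome subunit Psmb9 (right) in each tumour, as log2 of CPM over the mean of the 3 DKO tumours (vertical axis). Nlrc5 is lowest in TKO2, whereas H2-K1, B2m, Tap1 and Psmb9 are lowest in TKO1. Nlrc5, H2-K1, Tap1 and Psmb9 are highest in DKO2, and B2m is highest in DKO1.

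In lists of genes that act before and beside class I loading, 1 gene passed, where 7.36% of all genes did. Of 6 immunoproteasome genes, whose products cut peptides suited to class I, 0 passed (median 0.41). Psmb8 had 26.7, 34.3 and 28.3 CPM in the DKO tumours and 4.19, 27.5 and 24.03 CPM in the TKO tumours, and Psmb9, the neighbour of Tap1, 26.3, 42.7 and 27.3 CPM and 7.52, 33.2 and 36.1 CPM. TKO1 was again the lowest in both, while TKO2 and TKO3 overlapped the DKO tumours in Psmb9. Of 5 constitutive proteasome genes and 6 cytosolic peptidases 0 passed. Of 14 quality control genes of the endoplasmic reticulum 1 fell (2.47% of all genes did) and 0 rose (4.89% of all genes did), with a median of -0.64. TKO values lay below DKO values in 8 of the 14, where 15.6% of all genes separated that way. The faller was Derl1, a channel component of protein disposal from the endoplasmic reticulum, with 333, 395 and 323 CPM in DKO and 127, 145 and 123 CPM in TKO (log2 fold change -1.41, SE 0.25, adjusted p = 0.0272). The chaperone gene Hspa5 had 1377, 2438 and 1502 CPM in DKO and 412, 910 and 804 CPM in TKO (adjusted p = 0.123).

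Mr1 and Cd1d1 are class I-like presenters outside the H2 region. Mr1, which shows microbial vitamin B metabolites to mucosal-associated T cells (chromosome 1, 155127277 to 155146814), had 76.9, 70.7 and 73.6 CPM in the DKO tumours and 7.43, 25.4 and 24.9 CPM in the TKO tumours. The DKO tumours were close together and every TKO tumour was far below them. The log2 fold change was -1.94 (SE 0.48) and just missed the threshold (adjusted p = 0.0599). It passed without TKO1 (-1.56, adjusted p = 0.0126), by DESeq2 (0.00357), by limma-voom (0.0429), without a filter on low counts (0.0156) and with sex as a covariate (0.0469), within a range over alternatives of 0.00357 to 0.161. Cd1d1, which presents lipids to natural killer T cells, had 21.2, 6.47 and 13.2 CPM in DKO and 5.98, 16.2 and 85.9 CPM in TKO, with TKO3 far above the rest (adjusted p = 0.412). Without TKO3 the sign of its log2 fold change turned from 1.40 to -0.29. Of 7 tested genes with a class I-like fold outside these families 0 passed, where 7.36% of all genes did. Among them the neonatal Fc receptor Fcgrt had 79.3 to 85.2 CPM in DKO and 35.6, 146 and 211 CPM in TKO, and the natural killer cell ligand genes Raet1d and Raet1e had 17.9 to 24.8 and 18.9 to 24.02 CPM in DKO and 10.96 to 18.4 and 11.4 to 15.5 CPM in TKO.

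Transcripts of receptors that bind class I were scarce in DKO tumours. Of 16 receptor genes 4 could be tested, and 3 rose, where 4.89% of all genes rose. The 3 were Pirb, an inhibitory receptor of myeloid cells that binds class I, from 0.149, 0 and 0 CPM to 9.30, 44.4 and 22.5 CPM in the TKO tumours (adjusted p = 0.0181), and Lilr4b and Cd244a (adjusted p = 0.0236 and 0.0333). Cd8a had 0 CPM in the 3 DKO tumours and 0.332, 2.21 and 1.27 CPM in TKO and was not tested. Of 10 T and natural killer cell markers 0 passed the filter on low counts, and their summed level was 0 to 0.102 CPM in DKO and 1.41 to 7.98 CPM in TKO, with Ifng at 0 in all 6 libraries.

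Markers of several other cell types were higher in TKO tumours, where 4.89% of all genes tested rose. Of 10 macrophage markers 9 rose (all but Cd68), with a summed level of 7.19 to 124 CPM in DKO and 792 to 2526 CPM in TKO, and C1qa, C1qb and C1qc were at 0 in DKO. All 8 endothelial markers rose (9.67 to 11.4 CPM summed in DKO, 164 to 830 CPM in TKO), as did all 8 skeletal muscle markers (4.86 to 10.4 and 427 to 9980 CPM), all 4 tested red cell genes of 6 (0.496 to 1.27 and 88.5 to 1163 CPM) and both tested B and plasma cell genes of 6 (0.296 to 0.397 and 16.2 to 51.3 CPM). Of 8 class II genes, which mark professional antigen-presenting cells, 6 were tested and 4 rose, such as Cd74 from 1.29 to 3.41 CPM in DKO to 153 to 297 CPM in TKO. The part of these cells in the class I values was not tested. TKO1 had the lowest macrophage, endothelial and muscle sums of the TKO tumours and the lowest class I level, but the highest red cell sum (1163 CPM, against 88.5 and 457 CPM in TKO2 and TKO3). Of 7 tested osteoblast markers 0 passed, with summed levels of 15916 to 24456 CPM in DKO and 4277, 54346 and 80456 CPM in the TKO tumours.

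**Figure D5:**
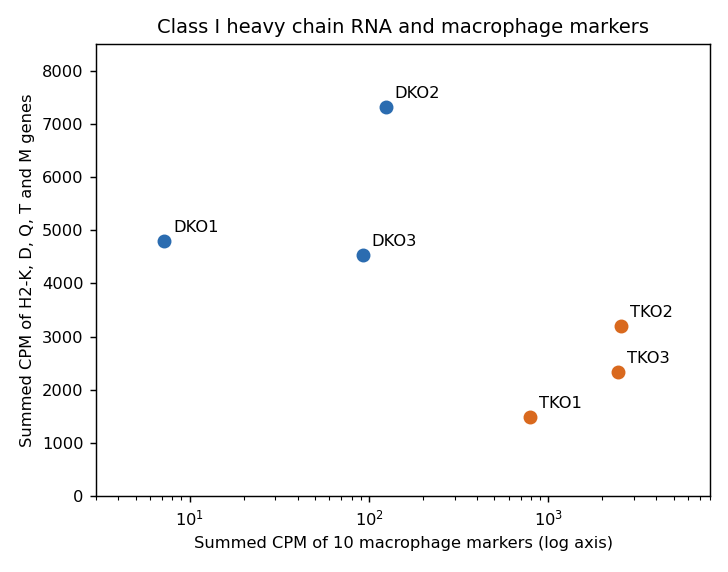
Summed CPM of the H2-K, H2-D, H2-Q, H2-T and H2-M genes (vertical axis) against the summed CPM of 10 macrophage markers (log axis) in each tumour, DKO in blue and TKO in orange. The DKO tumours lie at 4537 to 7322 CPM of heavy chains with at most 124 CPM of macrophage markers, and the TKO tumours at 1486 to 3191 CPM with at least 792 CPM.

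Other genes of the H2 region lay on both sides of 0. Between H2-K2 and H2-M2 (chromosome 17, 33974659 to 37483552), 17 genes of the list and 95 other genes were tested. Of the 95, 3 fell (3.16%, where 2.47% of all genes fell) and 7 rose (7.37%, where 4.89% of all genes rose). Among the 95, 52 had a negative log2 fold change, and the median was -0.07. In 19 of them (20.0%) all TKO values lay below all DKO values, where 15.6% of all genes separated that way. Of the 17, 2 fell and 0 rose, with a median of -1.30, and 10 (58.8%) separated with TKO lower. The 7 others that rose were the class II genes H2-Aa, H2-Ab1, H2-Eb1 and H2-DMb2, the myeloid genes Aif1 and Lst1 and the endothelial gene Notch4. The 3 that fell were the early response gene Ier3, the zinc finger gene Zfp57 and Gm9574, a pseudogene that shares some sequence with H2-T3. The 95 also hold the pseudogene H2-T-ps, and Gm11131 and A930015D03Rik, which overlap H2-Q4 and H2-T22. The 95 are therefore not all free of class I sequence.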

How the data were processed

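Per the labels' protocols, polyadenylated RNA of fresh tumours was selected on beads. Raw counts per gene were deposited by the authors, with STAR 2.6.1 and mm10 named in the submitters' processing notes (annotation release: not given in the sources used here). Of the count columns for either or each strand, the first was used, since the strands held equal shares (50.2 to 51.3%), and 0 genes differed from the series table. Reads at several places (3.94 to 4.70%), in more than 1 gene (5.10 to 6.53%), in no gene (5.33 to 9.30%) and unmapped (2.53 to 3.20%) stayed out. Symbols and positions come from GENCODE M21 (GRCm38), which matched 55240 of 56196 genes.

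Genes were kept by filterByExpr (minimum count 10) and scaled by TMM factors, and TKO was set against DKO by edgeR's quasi-likelihood test (edgeR 4.0.16, R 4.3.3; threshold 0.05), checked on simulated data. CPM values divide counts by the total times its TMM factor. SE is the log2 fold change over the root of the F statistic. Intervals cover counting error only. Genes tested are named with values in every tumour where their mean is at least 10 CPM or they passed; of other lists, those that passed, and of cell type markers counts and sums. Other list genes (such as Stat2, Irf1, Rfx5, Psmb8, Psmb9, Hspa5, Fcgrt and Raet1d) were named after their values were seen, and 1 list gene is not reported here. Reads of a gene and its antisense partner cannot be separated without strand. The members and lists were chosen with earlier results of these data known. Alternatives were RLE factors, library totals, DESeq2 1.42.0, limma-voom 3.58.1, 2 other filters, the other strand columns, a replicate block, sex as a covariate and each library left out; ratios, shares and separation without TKO1 were added after seeing the data.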

Additional observations from a re-analysis of the deposited data

How the results depend on the processing

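Only H2-Q5 and H2-Q7 passed, and the number of genes of the list that fell (2) was 1 with library totals, 1 with the first strand column, 1 under the replicate block, 4 by limma-voom (14.8%, where 2.95% of all genes fell), 7 of 37 without a filter on low counts (18.9%, where 1.49% of 31330 fell) and 8 by DESeq2 (29.6%, where 7.22% fell). It was 0 when genes under 1 CPM throughout a group were dropped (10 at an unadjusted p under 0.05), and 0 to 3 when 1 library was left out, with 0 without each library other than TKO1. The number that rose was 0 throughout. Over all genes, 751 rose and 380 fell; these were 1784 and 1109 by DESeq2, 74 and 84 when genes under 1 CPM throughout a group were dropped, 212 and 83 under the replicate block, and 0 to 1575 and 0 to 810 with 1 library left out (0 without DKO3, where 3017 had an unadjusted p under 0.05). The summed H2-Q family passed by DESeq2 (log2 fold change -1.99), limma-voom (-1.98), without a filter (-2.05) and with sex as a covariate (-2.02), and the sums of the other families did not pass under any alternative. The difference in the log2 ratio of B2m to heavy chains, -0.18, ran from -0.44 to 0.088 with 1 library left out, turning sign without DKO1. The sign of Erap1 turned with the first and second strand columns (0.030 and 0.19) and that of Tap2 by limma-voom (-0.029). With 1 library left out, 7 values turned sign: Calr (-0.32 to 0.040), Cd1d1 (-0.29 to 1.90), Erap1 (-0.30 to 0.19), Pdia3 (-0.47 to 0.11, 2 libraries), Tap2 (-0.054 to 0.89) and Tapbp (-0.64 to 0.18). The cause was not tested. Other scalings moved the median of all genes by at most 0.03.

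Under the replicate block H2-Q7 had an adjusted p of 0.0446 and H2-Q5 of 0.0537. Deviations of same-numbered tumours from their group means correlated across genes at -0.01, 0.01 and -0.02, so no pairing by replicate number was seen. With 3 tumours a group this cannot exclude a shared litter, day or batch. Replicate number also follows sex, with the male tumour as replicate 1 in each group. At this depth, changes of the 8 genes with 1 to 9 counts were not detectable.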
